A study of Mus musculus with 24 samples.

Results

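CD8+ T cells recovered from the liver on day 4 after transplantation were compared with CD8+ T cells recovered from peripheral blood on the same day. The members were chosen by sample title: 5 liver samples and 5 blood samples, 10 of the 24 samples of the series, with 1 array each. The questions were how alike liver and circulating cells are and which genes still lean to the liver. All samples are titled CD8+ T cells, and the cells were of OT-I donors bearing CD45.1, whose transgenic receptor (C57BL/6-Tg(TcraTcrb)1100Mjb/J) recognises an ovalbumin peptide. Transcripts of other cell types are described below, so the title is not a measure of purity. The recipients were female mice of 8 to 16 weeks carrying an ovalbumin transgene under the CAG promoter, which is active in most tissues. Liver and blood recipients alike had received 11 Gy of total body irradiation in 2 fractions of 5.5 Gy, then 3000000 bone marrow cells and 15000000 splenocytes from OT-I donors, and had acute graft-versus-host disease. Only the grafted OT-I cells carried CD45.1, and beads against CD45.1 isolated them from both sites. The labels call the graft allogeneic, although donors and recipients are both given as C57BL/6 lines that differ by their transgenes. Liver was dissociated before selection and blood is not described as dissociated, so site and dissociation cannot be told apart. The sources used here do not state whether every array stands for a different mouse. The p-values below therefore reflect array-to-array spread, which may in part be technical.

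An effector CD8+ T cell that meets its antigen divides, arms itself with granzymes and interferon gamma, and leaves lymphoid tissue through the blood. Liver sinusoids are slow, fenestrated vessels in which circulating T cells touch hepatocytes and Kupffer cells directly, so liver and blood populations exchange. Signals through the T cell receptor, cytokines or cell handling switch on immediate-early genes within minutes, among them Fos and Dusp1, and NF-kappaB switches on its own inhibitors, such as Nfkbia and Nfkbie.

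Values are log2 array signals relative to the 75th percentile of the same array, so 0 is that percentile and a difference of 1 is a 2-fold difference. The scanner software flagged 30.96% ± 1.88 (SD, n = 5) of gene probes as well above background in liver and 30.04% ± 5.05 (SD, n = 5) in blood. The difference of 0.920 percentage points was within the spread between arrays (two-sided exact permutation test, p = 0.722). Each of 5 slides held 1 liver and 1 blood array, and slide was therefore used as a block beside the plain fit. Liver replicate 5 stood apart from the other arrays, as described next, and results are given with and without it. The array number limits the precision.

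Liver and blood cells were alike across the transcriptome. Over the 9354 genes tested, the group means correlated with Pearson's r = 0.985, and 0.989 without liver replicate 5. This r is across genes, which are not independent replicates, and all genes share the same arrays. The corresponding r was 0.928 for lung and blood, 0.927 for intestine and blood, and 0.748 for blood and the grafted cells of day 0. Single liver arrays correlated with single blood arrays at a median of 0.948 over 25 pairs, from 0.833 to 0.976. Pairs within liver had a median of 0.941 (0.872 to 0.977, 10 pairs) and pairs within blood one of 0.949 (0.892 to 0.970, 10 pairs). A liver array was thus as close to a blood array as to another liver array. Liver replicate 3 was closest to blood replicate 5, with r = 0.961, and blood replicate 2 was closest to liver replicate 1, with r = 0.976. Liver replicate 5 had the lowest correlations, with a median of 0.901 to the other liver arrays and 0.894 to the blood arrays. Without it, liver and blood arrays correlated at 0.922 or more.

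**Figure D1:**
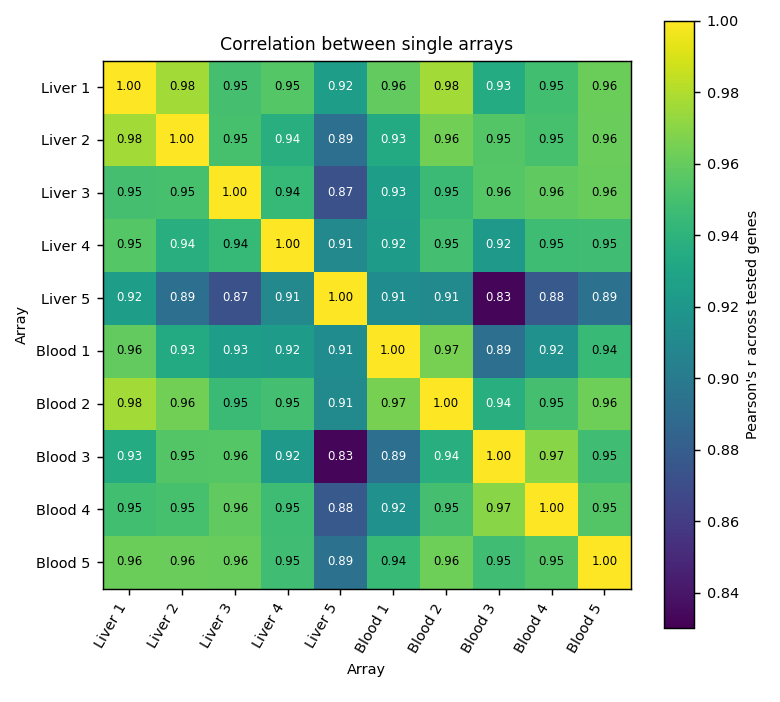
Pearson's r between single arrays across the 9354 tested genes, for 5 liver and 5 blood arrays, with colour and printed value giving r. Liver and blood arrays do not form separate blocks, and the row of liver 5 holds the lowest values, down to 0.83 with blood 3.

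The size of the differences was small for most genes. The median absolute difference was 0.23 on the log2 scale, and 97.3% of genes (9099) differed by less than 1 log2 unit between the group means. Another 134 genes were higher in liver by 1 log2 unit or more and 121 were lower by as much. The typical SD of a gene between replicates was 0.43 in liver and 0.42 in blood. The 95% interval of the difference lay wholly within 1 log2 unit for 5026 genes (53.7%). For the remaining genes the interval held differences of over 2-fold in at least 1 direction. Over all tested genes the interval reached a median of 0.70 to either side of the estimate.

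No gene passed the test in the plain fit. In limma with 1 mean per group, 0% of the 9354 genes had a Benjamini-Hochberg adjusted p under 0.05 in either direction, and the smallest adjusted p was 0.0949. At an unadjusted p under 0.05 there were 135 genes higher in liver (1.44%) and 167 lower (1.79%), 302 in all. In the same fit, with the same 5 blood arrays, 144 genes (1.54%) were called between lung and blood and 1251 (13.4%) between intestine and blood. These comparisons share the blood arrays with the liver comparison. All 5 liver arrays lay above all 5 blood arrays for 20 genes (0.214%) and below them for 68 genes (0.727%). On every slide the liver array was above the blood array for 353 genes (3.77%) and below it for 440 (4.70%).

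With slide as a block, 5 genes rose in liver (0.0535% of those tested) and 0 fell (0%), at an adjusted p under 0.05. They were Cd83, Dusp1, Cxcl10, Fos and Zfp36. With slide as a random block, at an estimated correlation of 0.105 within slides, limma called Cd83 and Dusp1 (adjusted p = 0.030 for each), and the calls of Cxcl10 (adjusted p = 0.0702), Fos (adjusted p = 0.167) and Zfp36 (adjusted p = 0.62) were lost. Liver and blood arrays of 1 slide also carry the same replicate number, so slide and number cannot be told apart. The block removes level differences between slides and does not alter the mean difference, because every slide holds 1 array of each group. Without liver replicate 5, the plain fit again called 0 genes, with 185 genes at an unadjusted p under 0.05, and the fit with slides called 4 of the 5 genes, without Fos.

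**Figure D2:**
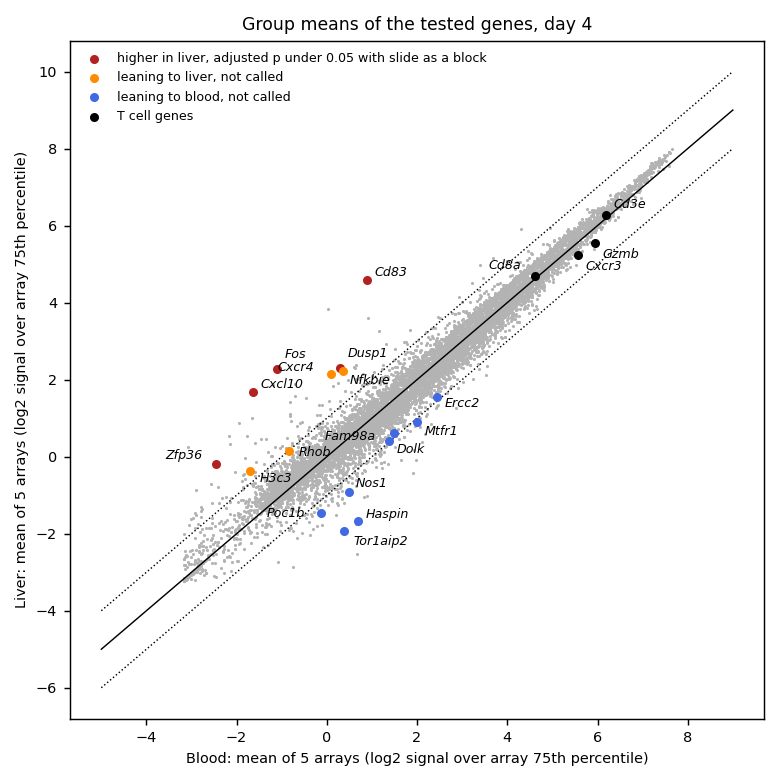
Mean log2 signal over the array's 75th percentile in blood (horizontal) and liver (vertical), 5 arrays each, 1 point per tested gene. The solid line marks equal means and the dotted lines a difference of 1 log2 unit. Most genes lie between the dotted lines, while Cd83, Fos, Cxcl10, Zfp36 and Dusp1 lie above them.

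The promoters of the called genes show which kinds of regulatory sequence precede their start sites. The 250 bases before the annotated start are given for the 4 called genes with an entry in the RefSeq table (GRCm38.p6), 5′ to 3′ on the gene's own strand. Capitals mark matches, on either strand, to 6 motifs: the cyclic AMP response element TGACGTCA, its shorter part TGACGT, the AP-1 site TGANTCA, the interferon response core GAAANNGAAA, the NF-kappaB site and the CArG box, the last of which binds serum response factor. The shorter part overlaps the full element. Fos is at chr12:85473640-85473889 on the plus strand, Dusp1 at chr17:26508473-26508722, Zfp36 at chr7:28379229-28379478 and Cxcl10 at chr5:92348890-92349139, these on the minus strand.
Fos: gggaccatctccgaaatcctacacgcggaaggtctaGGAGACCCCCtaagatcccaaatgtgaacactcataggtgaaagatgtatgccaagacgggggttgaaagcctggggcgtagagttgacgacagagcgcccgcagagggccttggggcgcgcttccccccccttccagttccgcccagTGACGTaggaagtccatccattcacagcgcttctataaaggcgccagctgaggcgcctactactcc
Dusp1: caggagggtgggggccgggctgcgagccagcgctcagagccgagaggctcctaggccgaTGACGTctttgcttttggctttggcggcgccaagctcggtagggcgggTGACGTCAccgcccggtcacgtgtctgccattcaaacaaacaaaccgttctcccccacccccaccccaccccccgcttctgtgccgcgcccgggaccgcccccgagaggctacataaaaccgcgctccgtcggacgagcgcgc
Zfp36: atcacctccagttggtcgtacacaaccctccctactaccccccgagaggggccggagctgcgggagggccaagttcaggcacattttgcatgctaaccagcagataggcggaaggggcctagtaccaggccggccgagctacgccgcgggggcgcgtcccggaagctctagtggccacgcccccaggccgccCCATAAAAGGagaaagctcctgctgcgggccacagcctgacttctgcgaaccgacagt
Cxcl10: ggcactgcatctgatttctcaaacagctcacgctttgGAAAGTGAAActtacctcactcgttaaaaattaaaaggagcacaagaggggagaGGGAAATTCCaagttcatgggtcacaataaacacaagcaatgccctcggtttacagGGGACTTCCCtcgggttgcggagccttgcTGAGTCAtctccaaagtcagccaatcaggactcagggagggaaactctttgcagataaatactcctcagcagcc

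The Dusp1 window held 1 full cyclic AMP response element, at -143 to -136 from the start, where -1 is the last base before it. A further match to its shorter part lay at -191 to -186. Of the 27025 promoters of this length in the table, 1.62% held the full element and 6.56% the shorter part. Of the 7300 promoters of tested genes, 2.82% and 10.4% did. The Fos window held the shorter part at -66 to -61 and an NF-kappaB match at -214 to -205. The Zfp36 window held a CArG box at -58 to -49, a motif present in 1.40% of the promoters. The Cxcl10 window held NF-kappaB matches at -159 to -150 and -103 to -94, an AP-1 match at -74 to -68 and an interferon response core at -213 to -204. NF-kappaB matches were present in 3.75% of all promoters, AP-1 matches in 6.87% and interferon response cores in 3.04%. Among promoters of tested genes the shares were 4.18% for NF-kappaB, 4.23% for AP-1, 2.81% for interferon response cores and 1.29% for the CArG box. A match is a description of the letters, not of binding.

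Cd83, a surface protein of activated lymphocytes and dendritic cells and a target of NF-kappaB, had the smallest p of the genes leaning to liver in the plain fit. Its log2 levels in liver replicates 1 to 5 were 4.67, 5.55, 1.71, 4.81 and 6.21, and in blood replicates 1 to 5 they were 0.57, 1.95, 0.05, 0.21 and 1.66. Liver replicate 3 lay within the blood range, and the other 4 liver arrays were above every blood array. The difference was 3.70 ± 0.70 log2 units (SE; 95% interval 2.25 to 5.14; adjusted p = 0.0949 in the plain fit and 8.0e-04 with slide as a block, limma). Its probe lies at chr13:43898276-43898335 of mm9. Without liver replicate 5 the difference was 3.29 in the plain fit (adjusted p = 0.365) and 3.37 with slide (adjusted p = 0.0045). Without liver replicate 3 it was 4.42 and passed the plain fit (adjusted p = 0.0023).

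Dusp1, a phosphatase that switches off MAP kinases, was the called gene whose groups did not overlap. Liver levels were 2.47, 2.57, 1.69, 2.47 and 2.35 and blood levels were 0.81, 1.43, -0.11, -0.71 and 0.07, in replicate order. The difference was 2.01 ± 0.39 log2 units, a 4.04-fold difference (95% interval 1.21 to 2.82; adjusted p = 0.0949, and 8.0e-04 with slide, limma). On single slides it ran from 1.14 to 3.18. Leaving out liver replicate 5 left it at 2.01 with slide (adjusted p = 0.0045), and without blood replicate 2 it was 2.30 and passed the plain fit (adjusted p = 0.044).

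Cxcl10, a chemokine induced by interferon gamma that attracts cells bearing Cxcr3, was well above background on 5 liver arrays and 1 blood array. Liver levels were 2.13, 2.71, -0.06, 0.76 and 2.86, and blood levels were -1.33, 0.19, -2.13, -3.13 and -1.81. Liver replicate 3 was just below the highest blood array, and the liver array was higher on all 5 slides, by 2.07 to 4.67. The mean difference was 3.32 ± 0.74 log2 units (adjusted p = 0.240, and 1.8e-04 with slide, limma), and 2.96 without liver replicate 5 (adjusted p = 3.3e-04 with slide). Under normexp background correction it was 1.73 (adjusted p = 0.0088 with slide). A second tested probe differed by 1.67. The probe shown lies at chr5:92775781-92775840 of mm9.

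Fos, a subunit of the AP-1 transcription factor, was uneven among blood arrays. Liver levels were 1.92, 2.91, 2.77, 1.01 and 2.81, whereas blood levels were 1.35 and 1.59 in replicates 1 and 2 and -2.86, -3.58 and -2.0 in replicates 3 to 5. Only the first 2 of these blood arrays were well above background, and on their slides the differences were 0.57 and 1.32, against 5.63, 4.59 and 4.81 on the other slides. The mean difference was 3.39 ± 0.82 log2 units (adjusted p = 0.396, and 0.027 with slide, limma). Without liver replicate 5 it was 3.08 with slide and no longer called (adjusted p = 0.131), nor was it without liver replicate 3 or 4 or blood replicate 3, 4 or 5, with adjusted p from 0.0612 to 0.159. Quantile normalisation also ended the call (2.98, adjusted p = 0.0671 with slide), as did normexp (1.85, adjusted p = 0.0610), scaling to the median of detected probes (adjusted p = 0.0741) and the authors' deposited log2 table (adjusted p = 0.0656). The probe lies at chr12:86817900-86817959 of mm9.

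Zfp36, an RNA-binding protein that destabilises cytokine transcripts, was dim. Its levels were -0.65, 1.94, -0.89, -1.59 and 0.20 in liver and -1.91, -0.56, -3.15, -3.55 and -3.08 in blood. It was well above background on 3 liver arrays and on 0 blood arrays, so the liver level was at least 1.60-fold higher. That bound sets the mean liver signal against, on each blood array, the higher of the gene's own signal and the lowest signal among probes well above background. The measured difference was 2.25 ± 0.80 log2 units, positive on all 5 slides (adjusted p = 0.990 in the plain fit and 0.0065 with slide, limma). With slide it was also called without liver replicate 5 (adjusted p = 0.044). The call with slide was lost under quantile normalisation (2.08, adjusted p = 0.213) and under normexp background correction (0.94, adjusted p = 0.163), and with the authors' deposited log2 table (2.08, adjusted p = 0.213). Its probe lies at chr7:29161940-29161999 of mm9.

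**Figure D3:**
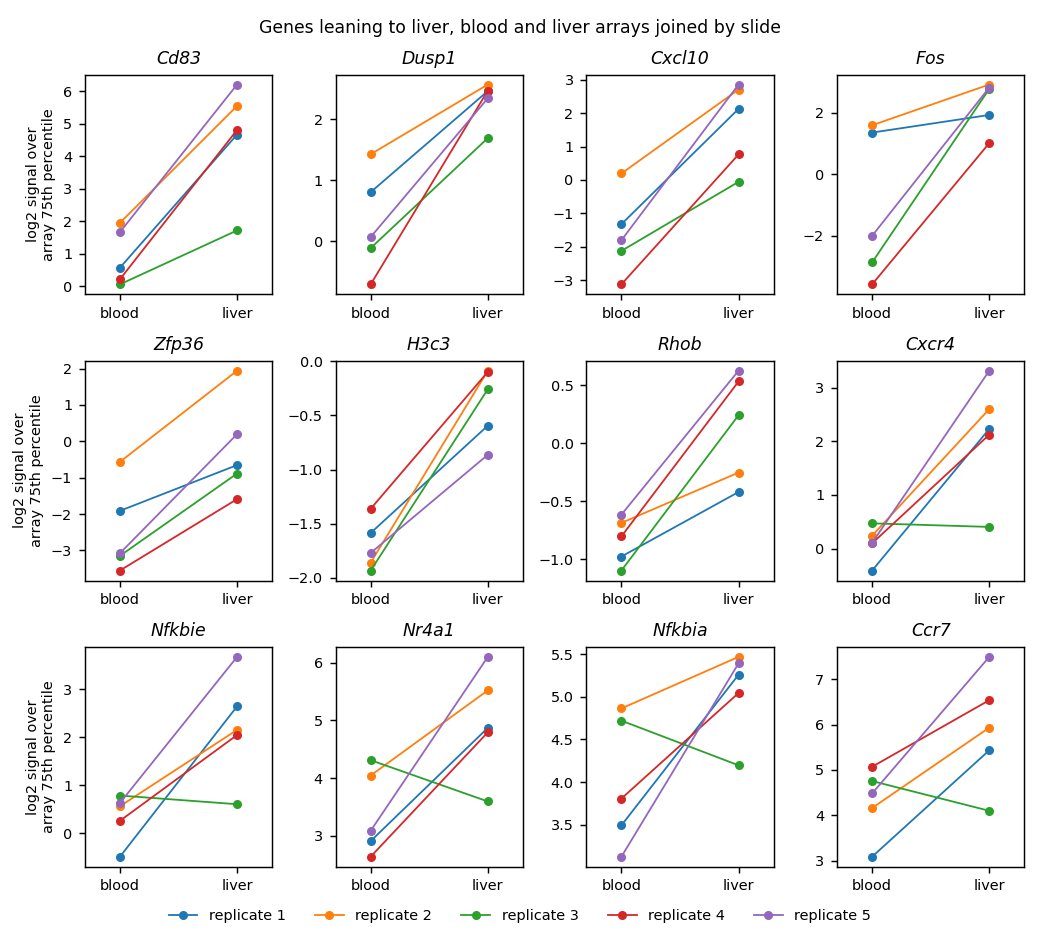
Log2 signal over the array's 75th percentile of 12 genes leaning to liver, with the blood and liver array of each slide joined by a line, 5 slides per gene. All lines rise for Cd83, Dusp1, Cxcl10, Fos, Zfp36, H3c3 and Rhob, while the slide of replicate 3 falls for Cxcr4, Nfkbie, Nr4a1, Nfkbia and Ccr7.

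The next genes leaning to liver were not called in either fit. H3c3, a replication-dependent histone H3 gene, was between -0.86 and -0.09 in liver and between -1.93 and -1.36 in blood, without overlap. It was well above background on 4 liver and 0 blood arrays, so it was at least 1.40-fold higher in liver (adjusted p = 0.147, and 0.0786 with slide, limma). Histone genes of this family are close copies of each other, and their probes may share signal. Rhob, a small GTPase of endosome traffic and an early response gene, was 0.98 ± 0.24 log2 units higher and also without overlap (-0.42 to 0.63 in liver, -1.10 to -0.61 in blood; adjusted p = 0.396). Cxcr4, the receptor for Cxcl12 and a homing receptor for bone marrow, was 2.23, 2.60, 0.40, 2.12 and 3.32 in liver and -0.41, 0.24, 0.47, 0.10 and 0.11 in blood. Liver replicate 3 alone fell into the blood range, and the difference was 2.04 ± 0.49 (adjusted p = 0.396). Nfkbie, an inhibitor of NF-kappaB, was 1.87 ± 0.50 higher (adjusted p = 0.638), again with replicate 3 as the one slide without a rise, at -0.18.

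The immediate-early genes leaned to liver as a list. Of 24 listed genes 19 were tested, and 18 of these had a higher mean in liver, with a median difference of 1.03 against 0.07 for all tested genes. With slide as a fixed block 3 of the 19 were called higher (Dusp1, Fos and Zfp36), against 0.0535% of all tested genes. With slide as a random block Dusp1 alone of the 19 was called, and Fos (adjusted p = 0.167) and Zfp36 (adjusted p = 0.62) were not. At an unadjusted p under 0.05 the plain fit had 9 higher and 0 lower, where all genes gave 1.44% and 1.79%. On every slide 8 of the 19 were higher, against 3.77% of all tested genes. The list's median was 0.57, 0.60, 0.70, 0.90 and 1.69 on the slides of replicates 1 to 5, and 0.71 without liver replicate 5. Under the other scalings it was 0.63 to 0.96, with 18 higher in each.

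Members of this list that were not called varied in how slides differed. Fosb, a partner of Jun in AP-1, was 2.09 to 4.99 in liver; in blood it was 3.17, 3.57 and 2.67 in replicates 1 to 3 and -2.17 and -2.73 in replicates 4 and 5. Its difference of 2.70 ± 1.01 thus rested on the last 2 slides. Nr4a1, an orphan nuclear receptor that follows T cell receptor signals, was 4.87, 5.52, 3.59, 4.80 and 6.10 in liver and 2.91, 4.04, 4.31, 2.64 and 3.09 in blood. It was higher on 4 slides and lower by 0.72 on that of replicate 3 (difference 1.58 ± 0.44, adjusted p = 0.715). Jun differed by 0.90 ± 0.34, Jund by 0.67 ± 0.27, Ppp1r15a, a regulator of the stress response, by 0.78 ± 0.27 and Egr1 by 1.03 ± 0.66, each with an adjusted p of 0.990. Dusp2, a phosphatase induced by activation, was the member with a lower mean in liver, by 0.04 ± 0.23.

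The NF-kappaB feedback list had a higher liver mean in all 12 tested genes of 15, with a median of 0.67. With slide as a block 1 of the 12 was called higher (Cd83), against 0.0535% of all tested genes. In the plain fit 5 were higher at an unadjusted p under 0.05, against 1.44% of all tested genes. Nfkbia, the classical inhibitor, was 5.26, 5.47, 4.20, 5.04 and 5.39 in liver and 3.49, 4.86, 4.72, 3.81 and 3.13 in blood, a difference of 1.07 ± 0.32 (adjusted p = 0.846). Relb, a subunit of the factor, had its highest level in liver replicate 5, at 4.70, against 2.39 to 2.97 on the other liver arrays. Traf1, a signalling adaptor, differed by 0.67 ± 0.30 and Tnfaip3, a brake on the pathway, by 0.62 ± 0.52. The list's median was 0.46 without liver replicate 5, and by slide 0.75, 0.49, 0.03, 0.36 and 1.76. Other scalings gave 0.48 to 0.58 with 11 or 12 genes higher. Nfkbia is on both lists.

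In the 5 genes called with slide as a block, blood had the lowest mean of the groups in the series. These genes were chosen for low levels on the same blood arrays, so the values against lung, intestine and graft are a description with no test. Mean Dusp1 was 0.30 in blood, 2.31 in liver, 2.33 in lung, 2.08 in intestine and 3.09 in the graft. Mean Fos was -1.10 in blood, 2.28 in liver, 3.26 in lung, 2.34 in intestine and 4.37 in the graft. The graft of day 0 was scanned on a slide of its own, so its level and that slide cannot be told apart. Mean Cd83 was 0.89 in blood, 4.59 in liver, 2.76 in lung, 5.04 in intestine and 3.47 in the graft. Against the same blood arrays, Dusp1 was higher in lung by 2.03 and in intestine by 1.78. Fos was higher in lung by 4.36 and in intestine by 3.44. Cd83 was higher in intestine by 4.15 and in lung by 1.87.

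**Figure D4:**
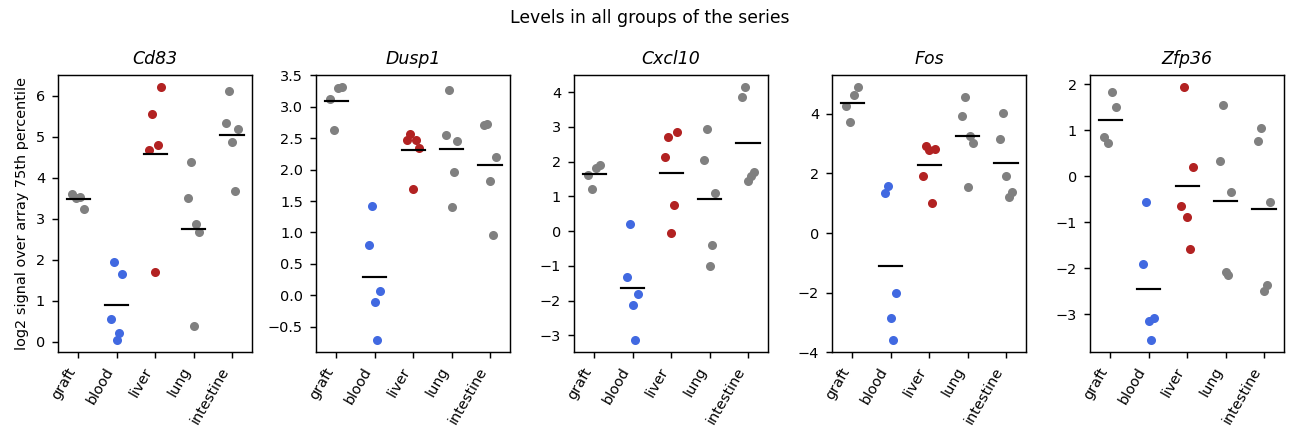
Log2 signal over the array's 75th percentile of the 5 genes called with slide as a block, in graft (4 arrays) and in blood, liver, lung and intestine (5 arrays each). Points are arrays and bars are group means. The genes were chosen for low blood levels against liver, and the blood mean is the lowest in each panel, for example 0.30 for Dusp1 against 2.08 to 3.09 in the other groups.

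Genes leaning to blood were not called either. Haspin, a mitotic histone H3 kinase, was 0.20, 0.40, 0.82, 0.97 and 1.11 in blood and -1.34, -1.10, 0.03, -3.17 and -2.83 in liver. The groups did not overlap, and the difference was -2.38 ± 0.46 log2 units (adjusted p = 0.0949, and 0.0991 with slide, limma). It was well above background on 1 liver array and 4 blood arrays, and under normexp background correction the difference was -0.96 (adjusted p = 0.340). Without liver replicate 3 it was -2.81 and passed the plain fit (adjusted p = 0.0037). Blood, for whose high level the gene was chosen, stood above every other group here, with means of -2.30 in lung, -2.24 in intestine and -2.68 in the graft. Ercc2, a helicase of nucleotide excision repair and of the transcription factor TFIIH, was 2.23 to 2.67 in blood and 1.34 to 1.89 in liver (difference -0.89 ± 0.19, adjusted p = 0.147). Mtfr1, a regulator of mitochondrial fission, was lower in liver by 1.11 ± 0.27 without overlap. Dolk, the kinase that makes dolichol phosphate for protein glycosylation, was -0.97 ± 0.24, and Fam98a -0.87 ± 0.23. Nos1, the neuronal nitric oxide synthase, was -1.41 ± 0.37 and well above background on 2 liver and 5 blood arrays. Poc1b, a centriole protein, and Tor1aip2, a nuclear envelope and endoplasmic reticulum protein, were well above background on 0 liver arrays. Under the main scaling their mean levels were higher in blood by at least 1.75-fold and 2.48-fold (adjusted p = 0.402 and 0.715, limma). These bounds do not hold in every setting. Over the settings the log2 difference ran from -1.53 to -0.47 for Poc1b and from -3.04 to -0.82 for Tor1aip2. The groups overlapped for Tor1aip2: blood replicate 1, at -2.11, lay below liver replicates 1, 2 and 5, at -1.02, -0.99 and -1.24. On the slide of replicate 1 the liver array was the higher for Tor1aip2, by 1.09.

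The defining genes Cd8a, Cd8b1 and Cd3e differed by less than their spread between arrays. Cd8a was 4.68 ± 0.21 in liver and 4.62 ± 0.54 in blood (SD, n = 5), with an interval of the difference from -0.84 to 0.96. Cd3e was 6.27 ± 0.24 and 6.18 ± 0.22. Cd8b1 differed by 0.11 (95% interval -0.97 to 1.19), and liver replicate 5 had its lowest level, 3.17 against 4.50 to 4.86 on the other liver arrays. All 3 were well above background on every one of the 10 arrays. Of the 15 tested T cell identity genes, 15 had a higher mean in liver, with a median of 0.16, but under the other scalings 7 to 13 were higher and the median lay between -0.02 and 0.08.

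No tested cytotoxic gene passed the test between the sites in either fit. Of 15 tested cytotoxic genes 7 were higher and 8 lower, with a median of -0.08, and 0 had an unadjusted p under 0.05 in the plain fit. With slide as a block, Prf1 (unadjusted p = 0.041) and Gzmm (unadjusted p = 0.043) were lower in liver (adjusted p = 0.956 for each, limma). Under the other scalings 4 to 5 were higher and the median was -0.26 to -0.16, where the median of all genes was -0.11 to 0.00423. Gzmb, granzyme B, was 5.54 ± 0.64 in liver and 5.94 ± 0.59 in blood, with a 95% interval of the difference from -1.76 to 0.97, and against -1.94 in the graft. Ifng, interferon gamma, was 4.46 ± 0.14 and 4.05 ± 1.02, with an interval from -1.02 to 1.85. Prf1, perforin, differed by -1.10 (interval -2.25 to 0.05, and -2.15 to -0.05 with slide as a block). It was lower in liver on every slide, from -1.68 to -0.19, and well above background on 3 liver and 5 blood arrays. Havcr2, the inhibitory receptor Tim-3, was lower by 1.03 (interval -2.15 to 0.10) and lower on every slide. The inhibitory receptors as a list had 8 of 13 higher and a median of 0.18. These intervals leave room for differences of 2-fold.

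Trafficking and residency genes leaned 2 ways. Cd69, a retention receptor, was 2.02, 2.60, 2.03, 1.89 and 1.43 in liver and 0.86, 2.71, 0.65, -1.75 and -0.09 in blood (difference 1.52, interval 0.09 to 2.95, adjusted p = 0.990). S1pr1, the egress receptor that Cd69 opposes, was lower by 1.08 (interval -2.47 to 0.32), and by 0.70 without liver replicate 5. Cxcr6, a receptor of liver-homing T cells, was 4.72, 2.23, 5.90, 6.07 and 5.29 in liver and 5.02, 4.92, 5.74, 5.88 and 4.93 in blood, so only liver replicate 2 departed from the blood range by more than 1 log2 unit. Cxcr3, the receptor for Cxcl10, differed by -0.33 (interval -1.50 to 0.84), and Itgal, a chain of the integrin LFA-1, by 0.15 (interval -0.49 to 0.79). Itga4, a chain of the integrin VLA-4, was 4.41 to 5.21 in liver and 5.29 or more in blood, without overlap (adjusted p = 0.990). Itga1 was well above background on 0 of the 10 arrays.

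The residency list had 11 of 13 tested genes higher, with a median of 0.66 and of 0.40 without liver replicate 5; 0 were called. Its members include Xcl1, a chemokine that attracts dendritic cells (1.29 ± 0.48), and Rgs2, a regulator of G protein signals (1.03 ± 0.38). The egress list had 8 of 13 higher and a median of 0.12. Ccr7, a lymph node homing receptor that is also on that list, was 5.43, 5.93, 4.10, 6.54 and 7.49 in liver and 3.09, 4.16, 4.76, 5.07 and 4.48 in blood (difference 1.59, interval 0.56 to 2.61, adjusted p = 0.890). Klf2, a factor that drives S1pr1, was higher by 0.59, with an interval that includes 0.

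Lists of metabolism had medians near that of all genes, 0.07. Oxidative phosphorylation genes had a median of 0.04 over 37 tested, glycolysis genes -0.06 over 19 and fatty acid oxidation genes 0.01 over 14. In oxidative phosphorylation 23 were higher, but under the other scalings 4 to 14 were, and in fatty acid oxidation 1 to 5 were. Cholesterol synthesis had 5 of 10 higher, and 2 to 4 under the other scalings, and Fdps, an enzyme of that route, was lower in liver without overlap, by 0.66 ± 0.26 (adjusted p = 0.990). The cell cycle list had 9 of 32 higher and a median of -0.17, which was 0.04 without liver replicate 5. Under the other scalings 4 to 5 were higher and its median was -0.36 to -0.22. On that replicate's slide the cell cycle median was -1.28, against -0.07 to 0.51 on the other slides. Aurka, a mitotic kinase, was 0.72 in liver replicate 5 and 2.58 to 2.77 on the other liver arrays. Interferon-stimulated genes had a median of 0.14 over 23 tested and interferon gamma-induced genes 0.13 over 18, of which Cxcl10 was called with slide as a block. Heat-shock genes had a median of 0.22 over 11 and unfolded protein response genes one of 0.05 over 22. The median of apoptosis regulators was 0.28 over 16 and that of hypoxia genes 0.03 over 11.

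**Figure D5:**
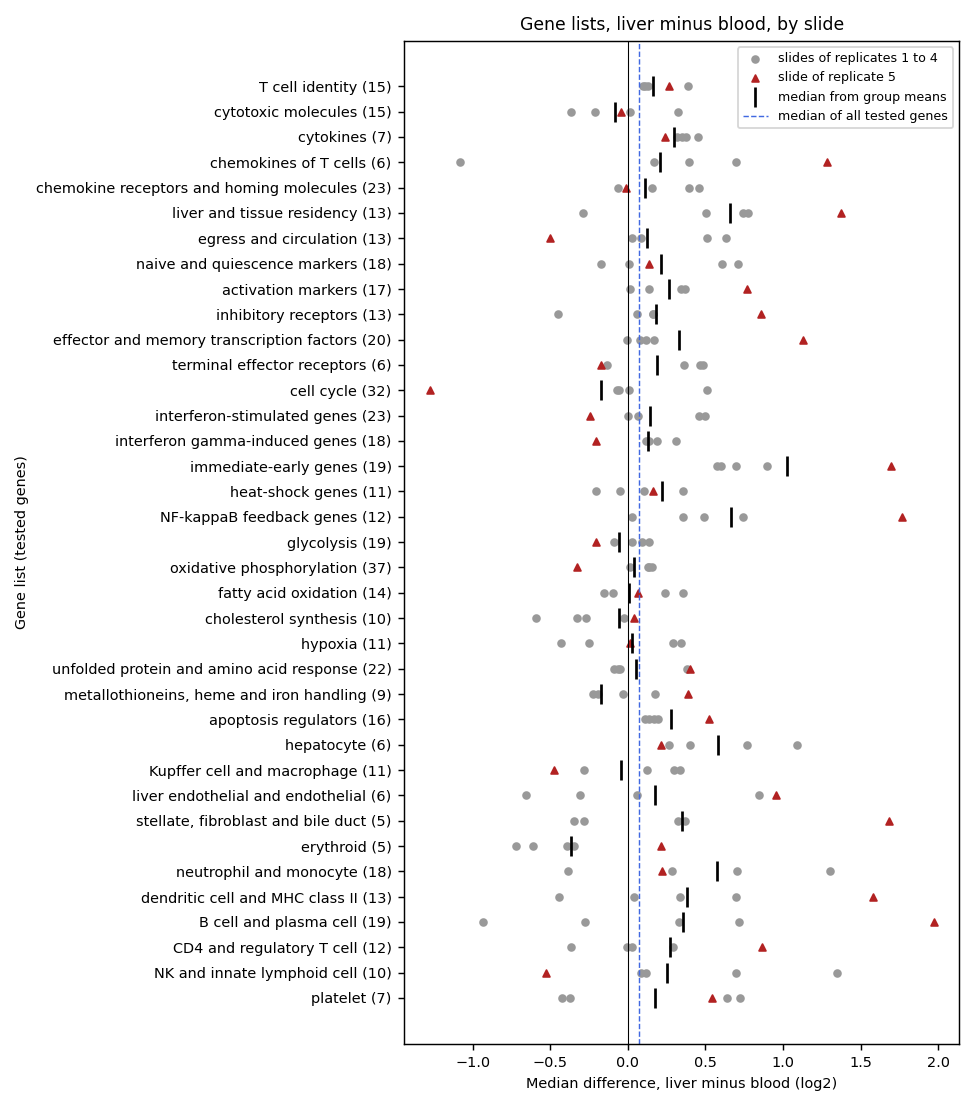
Median log2 difference, liver minus blood, of each gene list on each slide (points; triangles for the slide of replicate 5), with a bar for the median from group means and a dashed line at the median of all tested genes, 0.07. The number of tested genes is in brackets. Immediate-early genes lie above the dashed line on all 5 slides, as do the T cell identity, cytokine, apoptosis regulator and hepatocyte lists. The slide of replicate 5 is the outermost point for B cell, dendritic cell, cell cycle and NF-kappaB lists.

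Markers of other cell types were examined, and several were higher on some liver arrays. Of 30 hepatocyte markers on the array, 10 were well above background on any liver array and 6 on any blood array. The 6 hepatocyte genes tested all had a higher mean in liver, with a median of 0.58, and under the other scalings 4 to 6 did. Alb was above background on 0 of 10 arrays, as were Ttr and Apob. Hp, haptoglobin, made by hepatocytes and neutrophils, was 1.88, 1.01, -1.91, 3.68 and -2.97 in liver. The neutrophil genes Camp and Lcn2 followed the same arrays in part: Camp was 1.07, 1.43, -2.85, 4.57 and -3.01 in liver and at or below -2.09 in blood. S100a8 was 3.44 in liver replicate 4. Neutrophil and monocyte genes, 16 of 18 higher with a median of 0.57, summed to 90.3 to 257 times the array's 75th percentile in liver and to 82.5 to 114 times in blood. Ly6g was above background on 0 arrays. Their part in the differences above was not tested.

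Liver replicate 5 had higher levels of B and dendritic cell genes, and of several other lists. Its 75th percentile, to which its values are scaled, was the lowest of the 10 arrays (log2 signal 9.59, others 10.33 to 11.33). Activation markers summed to 678 times that percentile, against 355 to 437 times on the other liver arrays. Cell cycle genes (514 against 744 to 839) and interferon gamma-induced genes (221 against 240 to 303) summed lower. The part of the scaling was not tested. B cell genes summed to 214 times the 75th percentile on that array, to 54.9 to 101 times on the other liver arrays and to 47.7 to 62.1 times on the blood arrays. Over 19 tested B cell genes the median difference was 0.36, and -0.05 without that array. Ms4a1 and Cr2 were above background on 0 of 10 arrays. Dendritic cell and MHC class II genes summed to 318 times on liver replicate 5, to 79.0 to 174 times on the other liver arrays and to 49.7 to 95.9 times on the blood arrays, with a median difference of 0.38 and of 0.05 without that array; Ccr7 is one of them. CD4 and regulatory T cell genes summed to 233 times, against 55.8 to 120 times and 61.9 to 83.5 times. Cd83 and Ccr7 are also expressed by such cells, and their differences without liver replicate 5 were 3.29 and 1.19. The part of such cells in these differences was not tested.

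Kupffer cell and macrophage genes had 5 of 11 higher and a median of -0.04, and Vsig4, Timd4, C1qa and Adgre1 were above background on 0 arrays. Clec4f was above background on 3 liver and 2 blood arrays, at -1.02 to -0.02 and -1.52 to -0.37. Endothelial genes had a median of 0.17 over 6 tested, with Stab2, Lyve1 and Pecam1 above background on 0 arrays. Stellate, fibroblast and bile duct genes had a median of 0.35 over 5, and -0.08 without liver replicate 5, where Krt19, a bile duct keratin, was 3.21 against -2.85 to -1.42 on the other liver arrays. Erythroid genes leaned to blood: Hba-a2, an alpha globin, was 2.78, -1.62, 3.36, 1.96 and -3.10 in blood and -3.08, -2.56, -0.93, -3.19 and -2.85 in liver, well above background on 3 blood and 0 liver arrays, and so at least 3.04-fold higher in blood. In such bulk samples fewer cells of a type and less RNA per cell cannot be told apart.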

How the data were processed

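Transcripts were measured on 24 one-colour Agilent arrays, 10 of them used here. Per the labels, each sample's 300 pg of RNA was amplified linearly in 2 rounds, which can widen the spread of dim genes. The authors deposited the scanner output of each array. Its processed signal, a linear intensity after background subtraction, was not normalised between arrays; the mean signal, background intensity and flags stand in the same deposited files. The file headers name Feature Extraction 9.5.1.1 and mm9 for probe positions, whereas the submitters' processing notes name version 10.7. A deposited table of log2 values by the authors matched quantile-normalised values centred per probe (lowest correlation 0.99977) and entered as an alternative only.

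Of 43020 gene spots on each array, 39429 probes were distinct. Names came from the file annotation, updated through RefSeq (27508 probes by accession, 3544 by symbol, 404 by synonym; 862 kept the file's name and 7111 had none). The 75th percentile of each array was subtracted from log2 processed signals, which were fitted in limma 3.58.1 (R 4.3.3) over all 24 arrays, 1 mean per group. Probes well above background on all or all but 1 arrays of at least 1 group were tested, the probe of highest mean standing for its gene. A gene counted as called where its p, adjusted by Benjamini and Hochberg, was under 0.05. Non-uniform spots were left out, which dropped a value for none of the named genes.

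Named genes were the 8 of smallest p in each direction, well above background on 4 or more arrays of the higher group, the 2 of smallest p in each list and a fixed set of T cell, liver and blood cell genes; other members of the immediate-early and NF-kappaB lists, other list members given by detection or value and Zfp36 were named after their values were seen. Members and lists were chosen with earlier results of these data known. The scripts were tested on simulated data, in which 200 of 9354 genes were changed by known amounts. The plain fit called 37% of the genes changed by 1 log2 unit, 75% of those changed by 2 and 8 unchanged genes. Alternatives covered scaling, background, filters, weights, slide, replicate number and left-out arrays.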

Additional observations from a re-analysis of the deposited data

Results flagged for a closer look

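Of 236 groups of 5 arrays examined, 12 held 1 array far from the other 4 (by Dixon's test on the gap over the range), and chance gives about 1 in 20. Liver replicate 5 accounted for 5 of the 12: Aurka at 0.72 (other liver arrays 2.58 to 2.77), Krt19 at 3.21 (-2.85 to -1.42), Cd8b1 at 3.17 (4.50 to 4.86), Ms4a1 at -0.62 (-3.17 to -2.62) and Relb at 4.70 (2.39 to 2.97). Liver replicate 3 accounted for 3: Dusp1 at 1.69 (2.35 to 2.57), Tnf at -0.17 (-0.75 to -0.58) and Hba-a2 at -0.93 (-3.19 to -2.56). Liver replicate 4 was low for Nfkbiz at -0.92 (-0.47 to -0.31). In blood, Fam98a was 1.83 in replicate 5 (1.33 to 1.45), Tor1aip2 was -2.11 in replicate 1 (0.78 to 1.42) and Klf2 was 4.30 in replicate 3 (5.07 to 5.37). All are log2 signals over the array's 75th percentile.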

How the results depend on the processing

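Counts of called genes are given as higher and lower in liver, against 0 and 0 in the plain fit. They were 7 and 4 with array weights, 5 and 0 with slide as a fixed block, 2 and 0 (Cd83 and Dusp1) with slide as a random block, and 0 and 3 with no filter (23238 genes tested). Leaving out single arrays gave 0 to 1 higher and 0 to 1 lower: without liver replicate 3, Cd83 and Haspin were called, and without blood replicate 2, Dusp1. The replicate block of titles gave 4 and 0 over the 20 day 4 arrays and 0 and 0 over 10 arrays, where 4 residual degrees of freedom remain. Deviations of same-numbered arrays correlated at -0.07 to 0.40, and 2 of 5 liver arrays correlated best with the blood array of their number, so the data do not show that the numbers pair the samples. On day 4 slide and replicate number coincide, so both blocks are the same pairing, and whether same-numbered samples share an animal is not given in the sources used here. With slide as a block, settings added after seeing the data gave 3 and 0 for normexp background, quantile normalisation and the deposited log2 table, 5 and 0 for the 75th percentile of detected probes and 4 and 0 for their median. Leaving out single arrays there gave 4 to 9 higher and 0 to 4 lower; without blood replicate 3 there were 9 and 0, without liver replicate 3 there were 7 and 4, and without blood replicate 1 there were 6 and 1. Cd83, Dusp1 and Cxcl10 were among the called genes in each fit with slide as a fixed block. Each of those fits also held lung, intestine and graft arrays. Zfp36 and Fos were missing from some of them. The remaining alternatives, a fold minimum included, gave 0 and 0. The causes were not tested. Of 117 named genes, 99 kept 1 sign in every setting, and of 37 list medians 14 moved by more than the SD between liver arrays in at least 1 setting. The difference in probes above background ran from -0.929 to 2.33 percentage points when arrays were left out. Scaling moved the median of all genes from 0.07 to between -0.11 and 0.00423. A scan-day term was not run, since all liver and blood arrays were scanned on 1 day. Arrays not well above background limit Zfp36, H3c3, Cxcl10, Fos, Haspin, Poc1b and Tor1aip2, among others.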

Other observations

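Some members of the gene lists are not described above, and none of those given here passed the test. Il17a, a cytokine of type 17 T cells, was -0.11, -1.08, -0.79, 4.41 and 2.62 in liver and -0.48, -0.18, -0.55, -3.73 and -3.31 in blood, so the liver array was higher on 3 of 5 slides. Bcl2l11, which encodes the death-promoting protein Bim, was 0.79 higher (95% interval 0.29 to 1.28; limma adjusted p = 0.850) and higher on all 5 slides. Id2, a regulator of effector differentiation, was 0.78 higher (0.08 to 1.48) and higher on all 5 slides. Irgm1, an interferon-induced GTPase, was -1.80 to -0.35 in liver and -0.23 to 1.06 in blood, but it was well above background on only 1 liver and 3 blood arrays, and its difference ran from -1.58 to -0.41 over the settings. Il2ra, the high-affinity interleukin 2 receptor chain, was 1.13 lower (-2.38 to 0.13).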
